A study of Mus musculus with 9 samples.

Results

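The Kruppel-like factors are zinc finger transcription factors that share 3 DNA-binding fingers at the carboxyl end and bind GC-rich and CACCC-containing promoter sequences, where they activate or repress transcription through different partners. In the ovary several of them are known for early responses to gonadotrophins and for work at the promoters of steroidogenic genes. Klf4 in particular is known as a brake on the cell cycle, as a gene induced by stress and by luteinizing hormone, and as a reprogramming factor of stem cells. The genes described here are 10 members of this family (Klf2, Klf3, Klf4, Klf5, Klf6, Klf7, Klf9, Klf10, Klf13 and Klf15) of the 18193 genes named on the array. They were chosen by symbol, as every probe set whose single annotated gene is in that list, which gave 34 probe sets. The list was drawn up with earlier results of these 9 arrays in view, Klf4 foremost. Their differences between groups are therefore given as a description, with the error of the fit. Counts of members past a threshold stand beside the share of all genes or probe sets, and support nothing.

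Total RNA of cultured mouse granulosa cells, the somatic cells that surround the oocyte, was hybridised to Affymetrix mouse expression arrays. The mice were 20 to 26 days old and had received equine chorionic gonadotrophin, which drives follicle growth, 48 h before the cells were collected. The cells attached overnight in medium with 1% serum and then spent 24 h without serum with one of 3 adenoviruses, expressing eGFP as the control, the recombinase Cre, or WNT4. The submitters' preliminary infections used a multiplicity of about 50. Each virus had 3 arrays, so 9 were used in all. Every group thus carried an adenovirus, and every group came from gonadotrophin-treated mice. The mice were of various genotypes, and the series text speaks of floxed Ctnnb1 (beta-catenin) alleles for the Cre virus to recombine. The genotype behind each single array is unknown here. The labels call the replicates biological without naming separate animals or cultures, so errors and p-values measure the spread between these arrays, which may be technical.

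The viral targets did not settle the labels. One Wnt4 probe set had group means of 9.41 ± 0.45 for GFP, 10.63 ± 0.55 for Cre and 9.34 ± 0.48 for WNT4 (SD, n = 3). The other had 8.32 ± 0.78, 9.62 ± 0.51 and 9.29 ± 0.82. Both probe sets were thus highest on the arrays labelled Cre, and they disagreed on WNT4 against GFP. The Ctnnb1 probe set with the highest mean had 13.24 ± 0.28, 13.28 ± 0.30 and 13.77 ± 0.32 in that order. Whether these probe sets lie in the transcript of the virus or in the deleted part is unknown, and the groups are named by their labels throughout. Of 13 granulosa markers 12 had a mean of at least 6 on the log2 scale, the level under which a probe set is called dim here, and Amh lay just under it at 5.99. Of 9 endothelial markers 6 were dim, among them Cdh5 (4.96) and Pecam1 (4.70), as were 6 of 7 surface epithelial, 4 of 8 theca and stroma, 4 of 10 oocyte and 2 of 9 leukocyte markers. The endothelial markers Egfl7 (7.92), Kdr (6.36) and Esam (6.21) were not dim. The brightest markers of the other lists were Epcam (8.48, surface epithelium), Acta2 (11.91, theca and stroma), Gdf9 (9.38, oocyte) and Laptm5 (10.00, leukocyte). In bulk RNA a change in the share of a cell type and a change in RNA per cell cannot be told apart.

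The promoters of 3 members are shown because the results turn on these genes. Klf4 and Klf9 had the largest differences of WNT4 from GFP and from Cre, and Klf15 was the member that was lower with both viruses. Each run is the 250 bases before a RefSeq transcript start (GRCm38.p6), written 5′ to 3′ on the strand of the gene, with GC boxes (GGGCGG) and CACCC boxes (CACCC), the letters that Kruppel-like factors bind, in capitals on either strand.
Klf4, chr4:55532476-55532725, minus strand: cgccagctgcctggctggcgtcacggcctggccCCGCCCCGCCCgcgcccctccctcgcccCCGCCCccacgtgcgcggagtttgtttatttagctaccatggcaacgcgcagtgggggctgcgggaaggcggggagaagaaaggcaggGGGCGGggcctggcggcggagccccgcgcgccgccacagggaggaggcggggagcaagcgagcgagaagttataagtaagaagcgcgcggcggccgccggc
Klf9, chr19:23140976-23141225, plus strand: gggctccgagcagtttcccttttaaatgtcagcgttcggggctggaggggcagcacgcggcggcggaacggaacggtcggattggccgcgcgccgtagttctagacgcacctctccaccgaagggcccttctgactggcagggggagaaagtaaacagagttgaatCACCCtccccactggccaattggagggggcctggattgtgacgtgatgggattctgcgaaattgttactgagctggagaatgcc
Klf15, chr6:90462326-90462575, plus strand: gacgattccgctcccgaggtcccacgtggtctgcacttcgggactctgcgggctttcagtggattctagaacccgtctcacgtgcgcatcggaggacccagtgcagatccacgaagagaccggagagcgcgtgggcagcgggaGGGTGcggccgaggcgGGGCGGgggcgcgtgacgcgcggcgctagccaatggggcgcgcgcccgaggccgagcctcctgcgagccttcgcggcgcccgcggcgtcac

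These windows differ in their boxes, and that of Klf15 starts inside the annotated span of the gene. The Klf4 window held 4 GC boxes and 0 CACCC boxes, the Klf9 window 0 and 1, and the Klf15 window 1 of each. Of 32851 windows of the same length in the RefSeq table, 32.7% held a GC box and 52.0% a CACCC box. The table had entries for 8 of the 10 members, and their GC content ran from 59.2% in Klf7 to 78.4% in Klf3, against a median of 52.4% for all windows. Klf3, a repressor that binds CACCC boxes, had 6 GC boxes and 5 CACCC boxes, 1 pair of which overlapped, as did 1 pair in Klf13. The half-site of the cAMP response element (TGACG, either strand), found in 17.8% of windows, occurred in Klf4 (starting 232 bases before the start), Klf9 (46 before), Klf13 (56 before), Klf2 (241 before) and Klf15 (78 and 6 before). The E box (CACGTG), found in 6.02% of windows, occurred in Klf4 (182 before), Klf6 (43 before) and Klf15 (228 and 172 before). A match to the MEF2 consensus, found in 2.92% of windows, occurred in Klf2 alone among the 8 (118 before). Such matches describe letters and show no binding.

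Across the family the arrays labelled WNT4 stood above GFP for most members. Taking for each gene the probe set that is brightest on average, 9 of 10 members had a higher mean with WNT4 than with GFP, and Klf15 alone had a lower one. Of all 18193 genes 53.9% were higher by any amount. The median difference of the members was 0.58 on the log2 scale, beside 0.02 for all genes. All genes include many dim ones, whereas 1 of the 10 members was dim. On the arrays labelled Cre 8 of 10 members were higher than GFP (45.8% of all genes), with a median of 0.21, and Klf7 and Klf15 were lower. All 10 were higher with WNT4 than with Cre (61.0% of all genes), with a median of 0.30. Both comparisons with GFP share the same 3 control arrays.

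Calls over all probe sets held no member. In limma's fit, with Benjamini-Hochberg adjustment over 45037 probe sets, 0 of 34 member probe sets were called for WNT4 against GFP, where 7 of all probe sets (0.0155%) were. At an unadjusted p under 0.05, 15 of the 34 differed, beside 13.0% of all probe sets. Read as 1 probe set per gene, 5 of 10 members (Klf4, Klf6, Klf9, Klf10 and Klf13) were higher at that level, beside 12.6% of all genes, and 0 were lower, beside 4.46%. The WNT4 and GFP arrays did not overlap, with WNT4 higher, for Klf4, Klf6, Klf9 and Klf13, beside 12.5% of all genes. Among the 10556 genes with a mean of at least 6, to which these members belong, the share was 20.2%. Per gene 0 of 10 were called, beside 0.0275% of all genes, and 0 lay wholly below GFP, beside 5.52%. For Cre against GFP limma called 0 members and 0% of all probe sets, and 3 of the 34 had an unadjusted p under 0.05 (2.23% of all). The 3 belonged to Klf4, Klf13 and Klf15. The Klf13 probe set, which is not its brightest, was higher by 0.38 ± 0.15. Read as 1 probe set per gene, Klf4 was higher, beside 1.24% of all genes, and Klf15 lower, beside 1.29%. Klf4 lay wholly above GFP, beside 3.56% of all genes and 5.08% of those with a mean of at least 6. For WNT4 against Cre limma called 0 members and 0% of all probe sets, and 6 of the 34 had an unadjusted p under 0.05 (6.23% of all). The 6 belonged to Klf3, Klf4 and Klf9. The Klf3 probe set, which is not its brightest, was higher by 0.42 ± 0.17. Read as 1 probe set per gene, Klf4 and Klf9 were higher, beside 6.96% of all genes, and 0 lower, beside 1.19%. Klf9 lay wholly above Cre, beside 6.55% of all genes, and 0 members wholly below, beside 2.41%. Of genes with a mean of at least 6, 9.69% lay wholly above Cre. Nothing is read from these counts, since the members were chosen with the comparisons known.

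**Figure D1:**
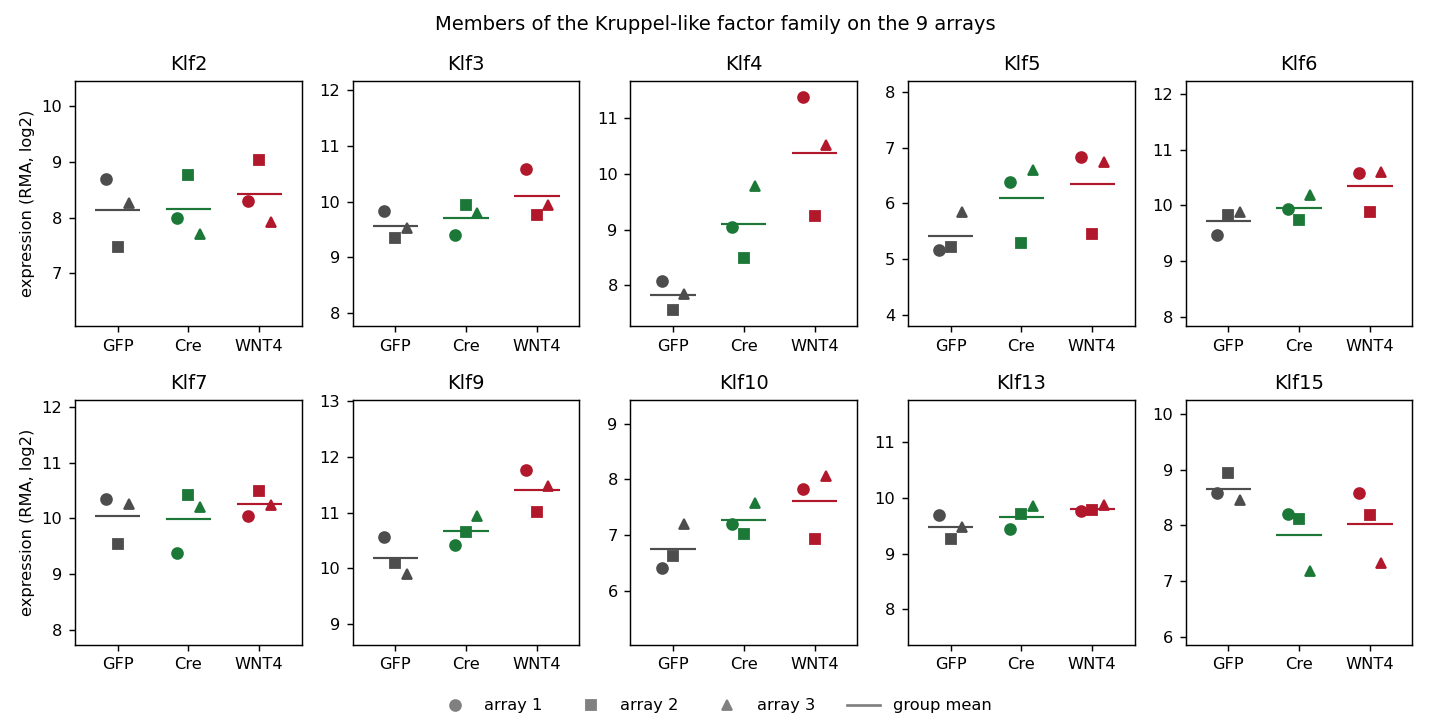
Expression of the 10 members on the 9 arrays (RMA values, log2; each panel spans 4.4 log2 units) for the GFP, Cre and WNT4 groups, read from the probe set with the highest mean; symbols mark the replicate number and lines the group means of 3 arrays. Klf4 and Klf9 stand highest on the arrays labelled WNT4, Klf15 is lowest on the arrays Cre 3 and WNT4 3, and Klf2 and Klf7 spread widely within the GFP and Cre groups.

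Klf4 showed the largest difference of the 10. Its brighter probe set read 8.08, 7.55 and 7.84 on GFP 1, 2 and 3. It read 9.05, 8.49 and 9.78 with Cre, and 11.38, 9.24 and 10.51 with WNT4. Every Cre array and every WNT4 array lay above every GFP array, while WNT4 2 lay within the range of the Cre arrays. The group means were 7.83 ± 0.26, 9.11 ± 0.65 and 10.38 ± 1.08 (SD, n = 3). The WNT4 mean stood above GFP by 2.55 ± 0.51 (SE of the fit), or 5.86-fold. The Cre mean stood above GFP by 1.28 ± 0.51, or 2.43-fold. WNT4 stood above Cre by 1.27 ± 0.51, and by 0.77 without WNT4 1. Among 10556 genes with a mean of at least 6, 7 genes, Klf4 included, had a WNT4 to GFP difference at least as large.

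The other Klf4 probe set read 5.50, 5.17 and 5.35 with GFP, 6.05, 5.20 and 6.01 with Cre, and 8.41, 6.01 and 7.14 with WNT4. Here too every WNT4 array lay above every GFP array, by 1.84 in the mean, but the Cre arrays overlapped GFP, with a difference of 0.41. The spread among the WNT4 arrays was the same in kind, with WNT4 1 highest and WNT4 2 lowest at both probe sets.

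**Figure D2:**
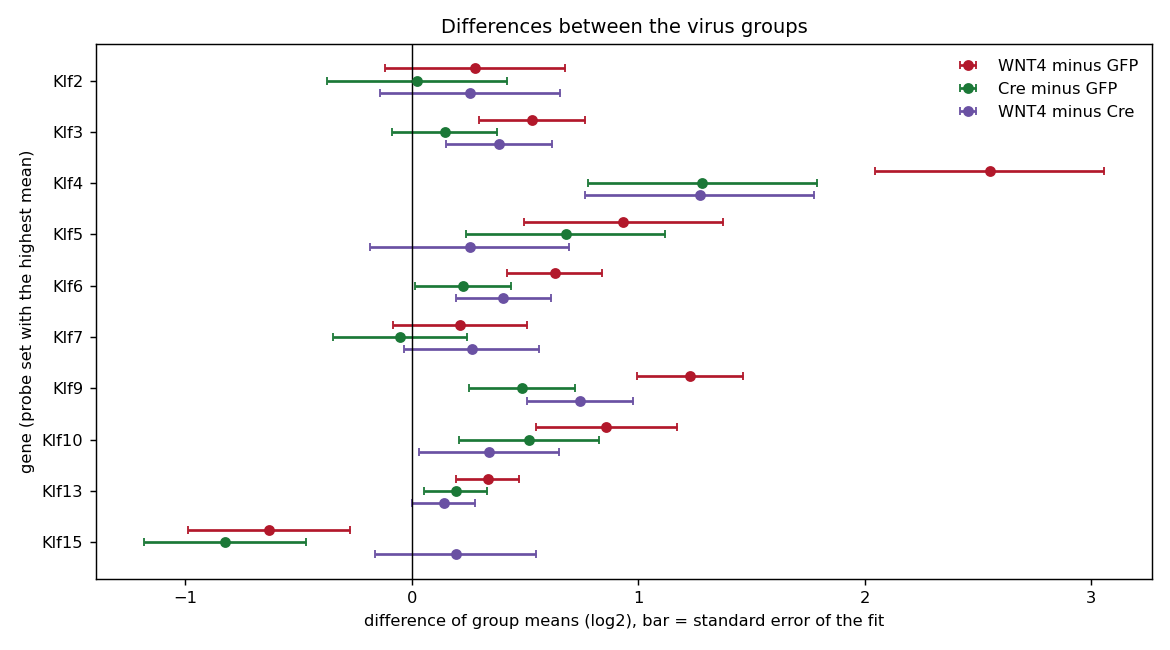
Differences of group means (log2) for each member, with bars of 1 standard error of the fit over 9 arrays, for WNT4 minus GFP, Cre minus GFP and WNT4 minus Cre. Klf4 lies farthest from 0 in all 3, Klf9 follows for WNT4 minus GFP at 1.23, and Klf15 is the member below 0 in both comparisons with GFP by more than its standard error.

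Klf9, a repressor induced by thyroid hormone and glucocorticoids and a partner of the progesterone receptor, had the next largest WNT4 difference. Its brightest probe set read 10.56, 10.09 and 9.91 with GFP, 10.42, 10.66 and 10.93 with Cre, and 11.76, 11.01 and 11.48 with WNT4. The WNT4 arrays lay above all others, and the Cre arrays overlapped GFP. The WNT4 mean stood 1.23 ± 0.23 (SE) above GFP, or 2.34-fold, and 0.74 ± 0.23 above Cre, and the Cre mean stood 0.49 ± 0.23 above GFP. Klf9 had 7 probe sets, of which 4 were dim. The 3 others differed between WNT4 and GFP by 0.78 to 1.31, and the dim ones brought the mean over all 7 down to 0.54.

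Klf13, a close relative of Klf9 that also acts with steroid receptors and binds GC boxes, moved less. It read 9.69, 9.25 and 9.48 with GFP, 9.44, 9.70 and 9.85 with Cre, and 9.76, 9.78 and 9.88 with WNT4. The WNT4 arrays lay close together and just above GFP 1. The WNT4 mean stood 0.33 ± 0.14 above GFP, but 0.11 above it after quantile normalization. Its other probe set with a mean of at least 6 differed by 0.59.

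Klf6 and Klf10, both quick to respond to growth factors and the latter known as the TGF-beta inducible early gene, shared a pattern. Klf6 read 9.47, 9.83 and 9.87 with GFP, 9.93, 9.73 and 10.18 with Cre, and 10.57, 9.89 and 10.60 with WNT4. WNT4 1 and WNT4 3 stood apart from all other arrays, and WNT4 2 lay barely above GFP 3. The WNT4 mean stood 0.63 ± 0.21 above GFP, and all 5 Klf6 probe sets were higher, by 0.41 to 0.73. Klf10, with a single probe set, read 6.41, 6.62 and 7.20 with GFP, 7.20, 7.01 and 7.58 with Cre, and 7.83, 6.93 and 8.05 with WNT4. Its WNT4 arrays overlapped GFP through WNT4 2, and the difference of means was 0.86 ± 0.31. By the root mean square difference of their centred values over the 9 arrays, Klf6 and Klf10 were the nearest pair of members (0.21 on the log2 scale).

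Klf5, an activator of growth in epithelial and smooth muscle cells, lay near the dim level. Its highest probe set averaged 5.95 over the arrays and read 5.16, 5.22 and 5.84 with GFP, 6.38, 5.28 and 6.60 with Cre, and 6.83, 5.45 and 6.75 with WNT4. Cre 2 and WNT4 2 read like GFP, and the other arrays of these groups stood above it. The difference was 0.93 ± 0.44 for WNT4 against GFP and 0.68 ± 0.44 for Cre against GFP. The other 2 Klf5 probe sets, both dim, were lower with WNT4, by -0.10 and -0.23.

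Klf3, which recruits the corepressor CtBP, depended on the probe set. The one with the highest mean read 9.83, 9.34 and 9.53 with GFP, 9.40, 9.94 and 9.80 with Cre, and 10.59, 9.76 and 9.94 with WNT4. WNT4 1 stood clear of GFP and Cre, WNT4 3 barely exceeded both, WNT4 2 lay inside the GFP range, and the difference of WNT4 and GFP means was 0.53 ± 0.23. Of its 7 probe sets 5 had a mean of at least 6. These 5 ran from -0.18 to 0.75 for WNT4 against GFP, 3 of them higher.

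**Figure D3:**
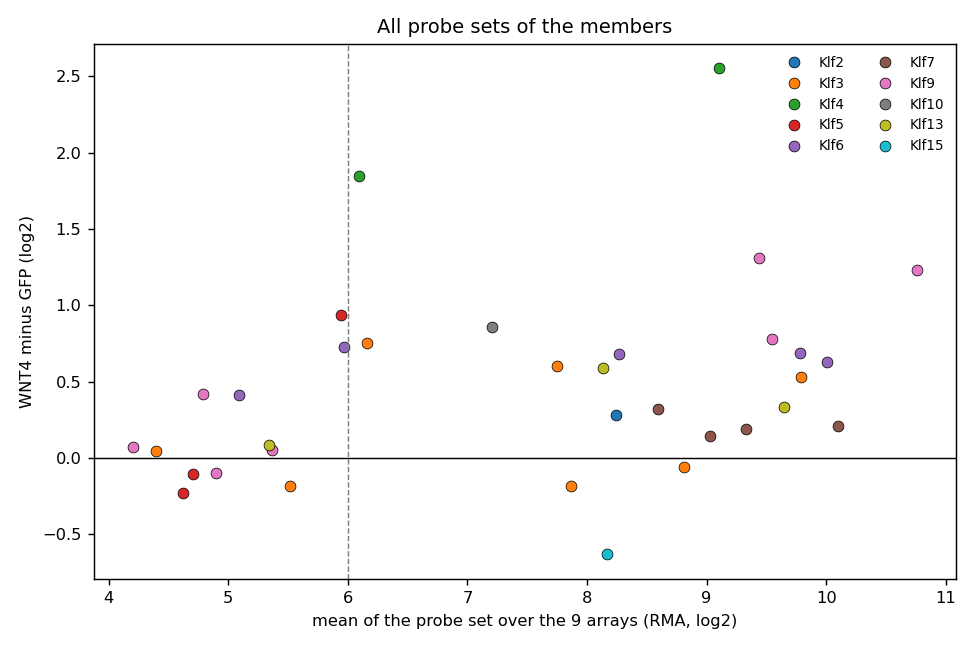
WNT4 minus GFP difference (log2) of all 34 probe sets of the members against the mean of the probe set over the 9 arrays (RMA, log2); the dashed line marks the dim level of 6. The 4 probe sets of Klf7 lie between 0.15 and 0.32, those of Klf3 spread on both sides of 0, and most of the 12 dim probe sets lie near 0.

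Klf2 and Klf7 varied widely within the groups. Klf2, a factor of quiescence in lymphocytes and endothelium, read 8.69, 7.47 and 8.26 with GFP, 7.998, 8.78 and 7.72 with Cre, and 8.31, 9.04 and 7.91 with WNT4. Its differences from GFP were 0.28 ± 0.40 for WNT4 and 0.02 ± 0.40 for Cre, smaller than their standard errors. Klf7, a factor of neurons and adipose progenitors, read 10.34, 9.54 and 10.26 with GFP, 9.37, 10.42 and 10.20 with Cre, and 10.04, 10.49 and 10.24 with WNT4. Its differences from GFP were 0.21 ± 0.30 and -0.05 ± 0.30, and its 4 probe sets ran from 0.15 to 0.32 for WNT4 against GFP. Same-numbered WNT4 and Cre arrays deviated together over all probe sets, so the members were also set side by side within these pairs. Klf2 was higher with WNT4 by 0.31, 0.26 and 0.20 in the pairs numbered 1, 2 and 3, and Klf7 by 0.67, 0.08 and 0.05. Klf4 was higher by 2.33, 0.75 and 0.73. In all, 8 of 10 members were higher with WNT4 in each of the 3 pairs, beside 20.6% of all genes; Klf3 (-0.17) and Klf10 (-0.08) were lower in the pair numbered 2.

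The spread of Klf7 ran opposite to that of cell cycle genes. In each group the arrays highest in Klf2 and Klf7 were GFP 1, Cre 2 and WNT4 2. A list of 12 cell cycle genes, chosen with these values known, stood lowest on those same arrays, at -0.78, -0.70 and -0.89 relative to the GFP mean. Klf7 was lowest on GFP 2, Cre 1 and WNT4 1, where the cell cycle list stood highest in its group, at 0.55, 0.36 and 0.50. The part of cell division in the Klf7 values was not tested.

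Klf15, which drives amino acid breakdown and restrains lipid synthesis in liver and muscle, was the member with lower means. It read 8.58, 8.94 and 8.45 with GFP, 8.21, 8.11 and 7.17 with Cre, and 8.57, 8.19 and 7.31 with WNT4. All Cre arrays lay below all GFP arrays, beside 2.64% of all genes that did so, while WNT4 1 lay within the GFP range. The Cre mean stood -0.83 ± 0.36 from GFP and the WNT4 mean -0.63 ± 0.36. Both differences leaned on the arrays numbered 3: without Cre 3 the former was -0.50, and without WNT4 3 the latter was -0.28. Of 9 amino acid and glucose metabolism genes known as Klf15 targets, 0 differed at an unadjusted p under 0.05 for WNT4 against GFP and 0 for Cre, and 0 were called by limma. For WNT4 against GFP Tat, an amino acid transaminase (dim), differed by -0.22 ± 0.12, Acss2, which makes acetyl-CoA from acetate, by 0.68 ± 0.38, Pdk4, a kinase that spares glucose, by 1.06 ± 0.67, and the transaminase Got1 by 0.54 ± 0.37.

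Arrays that stood apart did so for stress genes as well. A list of 15 measured hypoxia genes stood 2.81 above the GFP mean on Cre 3 and 3.13 on WNT4 3, against 0.62 or less on the 7 others. Klf15 was lowest on the same pair of arrays, at -1.48 and -1.34 relative to the GFP mean. In that list 0 genes had an unadjusted p under 0.05 for WNT4 against GFP, and 0 were called by limma. The part of oxygen supply in the Klf15 values was not tested. A list of 12 unfolded protein and integrated stress genes stood 2.59, 0.68 and 1.40 above GFP on WNT4 1, 2 and 3, and at 0.36, -0.04 and 0.27 on Cre 1, 2 and 3. Of these genes 11 had an unadjusted p under 0.05 for WNT4 against GFP, all higher, and 0 were called by limma. Klf4 stood at 3.56, 1.41 and 2.69 on WNT4 1, 2 and 3 and at 1.22, 0.66 and 1.96 on Cre 1, 2 and 3. The order of the WNT4 arrays was thus the same for Klf4 and the stress list. Cre 3 stood at 1.96 in Klf4 and at 0.27 in the stress list, where the GFP arrays ran from -0.24 to 0.20. The part of this stress response in the Klf4 values was not tested.

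RNA quality was read from the 3′ to 5′ difference of beta-actin. It was 1.38, 0.98 and 1.30 on WNT4 1, 2 and 3, beside 1.28, 1.12 and 1.08 with GFP and 1.05, 1.13 and 1.07 with Cre. WNT4 1 and WNT4 3, the arrays with the highest Klf4, were also the pair with the highest values of this measure. The same difference for Gapdh was lowest on Cre 3 (0.95) and WNT4 3 (1.36), and 1.77 or more on the 7 others. The part of RNA quality in the Klf4 values was not tested. Without WNT4 1 the Klf4 difference between WNT4 and GFP was 2.05, and without WNT4 2 it was 3.12. Without the arrays numbered 3, an alternative chosen after seeing the data, it was 2.49.

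**Figure D4:**
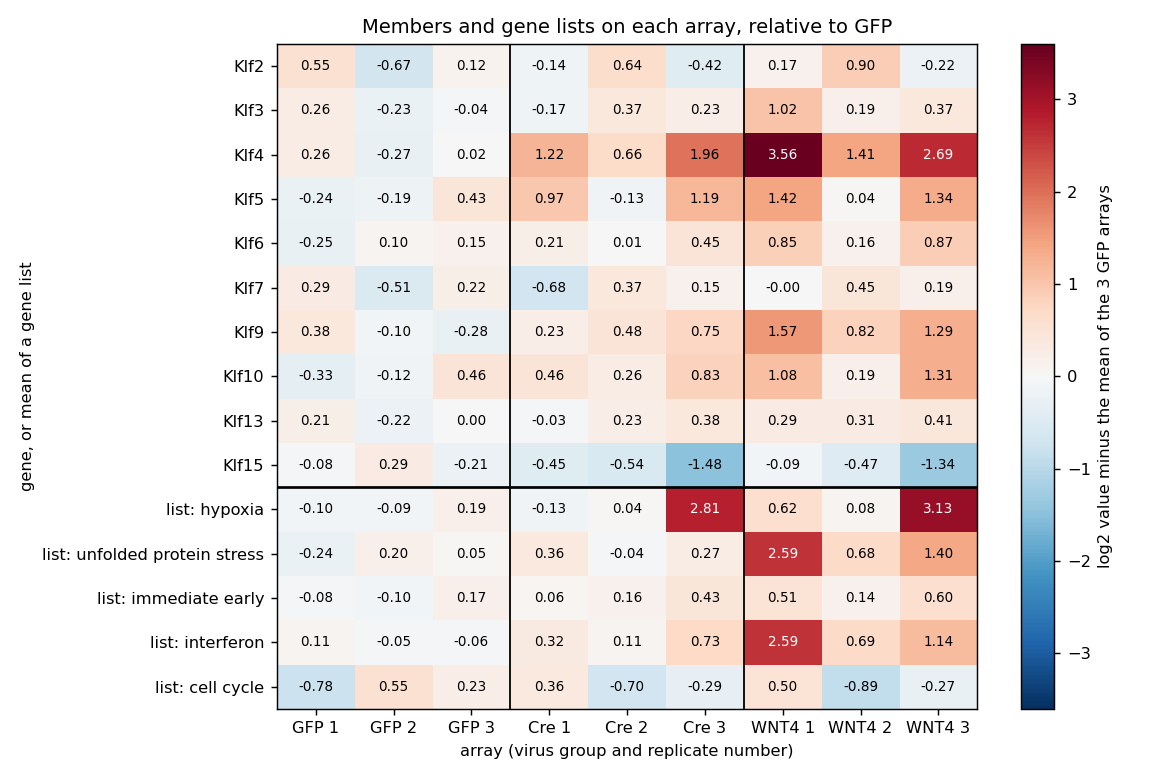
Log2 value of each member, and mean of 5 gene lists, on each array relative to the mean of the 3 GFP arrays; red is higher, blue lower, and the number is printed in each cell. Klf4 reaches 3.56 on WNT4 1, and Klf15 falls lowest on the arrays Cre 3 (-1.48) and WNT4 3 (-1.34), where the hypoxia list stands at 2.81 and 3.13.

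The calls depended on WNT4 2. Without it limma called 748 probe sets for WNT4 against GFP, 1.66% of all, and 5 member probe sets were among them. At 1 probe set per gene it called 2.44% of all genes, Klf4 and Klf9 among them. These genes were chosen with the same arrays in view, so nothing is read from their calls. In the other fits that left out 1 array, 0 members were called. For WNT4 against GFP these fits called 0.0200% of all probe sets without GFP 1, and 0% otherwise. WNT4 2 read lowest of its group for Klf3, Klf4, Klf5, Klf6, Klf9 and Klf10, and Cre 2 read lowest of its group for Klf4, Klf5, Klf6 and Klf10.

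The genes with the profile nearest to Klf4 were Tmem229a, Rtp4, Ifitm3, Trim30a, Atf3 and Irf9. Likeness was the root mean square difference of log2 values centred on each gene's own mean over the 9 arrays, among 10547 other genes with a mean of at least 6. It ran from 0.30 for Tmem229a, a transmembrane protein, to 0.46 for Irf9, the DNA-binding part of the interferon-activated complex ISGF3. Rtp4, Ifitm3 (an inhibitor of virus entry) and Trim30a are interferon-induced genes, and Atf3 is a stress-induced transcription factor. Rtp4 read 7.28, 7.09 and 7.35 with GFP, 7.60, 7.46 and 8.95 with Cre, and 11.18, 8.34 and 9.50 with WNT4. Atf3 read 6.59, 6.43 and 6.85, then 6.78, 6.45 and 7.81, then 9.42, 7.12 and 8.39 in the same order. A list of 12 interferon genes, also chosen with the values known, 10 of them measured, stood 2.59, 0.69 and 1.14 above GFP on WNT4 1, 2 and 3, and 0.32, 0.11 and 0.73 above it on Cre 1, 2 and 3. In both groups the order of the arrays was that of Klf4. At an unadjusted p under 0.05, 7 of the list were higher for WNT4 against GFP, and 0 were called by limma. The part of an interferon response in the Klf4 values was not tested. Among the members themselves Klf9 lay nearest to Klf4, at 0.70. That distance was larger than the root mean square spread of Klf9 itself (0.57), so the 2 profiles were not close.

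**Figure D5:**
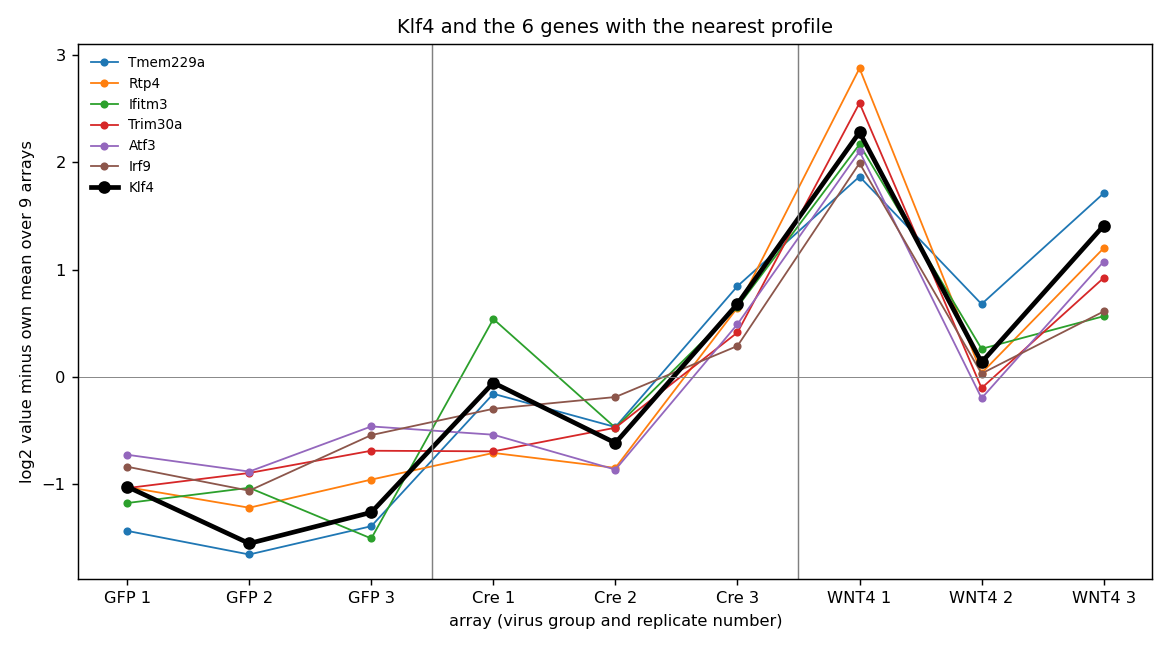
Log2 values of Klf4 (black) and the 6 genes with the nearest profile, each minus its own mean over the 9 arrays; lines only join points of a gene, since replicates have no order. All 7 genes peak on WNT4 1, and on WNT4 2 each reads lower than on WNT4 1 and WNT4 3. The 6 were picked for nearness to Klf4 on these same arrays, so the shared shape follows from the choice.

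Further members of the family were read in the same way. Of 7 further Kruppel-like factors 6 were measured, with a median WNT4 to GFP difference of 0.10, and 0 were called by limma. At an unadjusted p under 0.05 Klf16 was higher (0.36 ± 0.14, dim) and Klf12, a repressor of the AP-2 alpha gene, was lower (-0.39 ± 0.16). Klf11, a TGF-beta inducible relative of Klf10, differed by 0.41 ± 0.29, and Klf1, the erythroid factor, by -0.08 ± 0.08. The SP factors bind the same GC boxes. Of their 7 measured genes 0 were called, with a median of 0.03; Sp1 differed by 0.38 ± 0.14, Sp3 by 0.51 ± 0.25, Sp6 by -0.36 ± 0.15 and the dim Sp7 by -0.22 ± 0.12.

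Partners, ligases and upstream kinases were measured next. Of 14 corepressors, coactivators and ubiquitin ligases of the family 0 were called, 4 were higher and 1 lower for WNT4 against GFP at an unadjusted p under 0.05, and the median was 0.22. Wwp1, a ligase that marks Klf2 and Klf5 for degradation, differed by 0.91 ± 0.26, and Ctbp2, a corepressor bound by Klf3, by 0.52 ± 0.17. Sin3b, a scaffold of histone deacetylases, differed by 0.34 ± 0.12, and Fhl3, a LIM-domain cofactor (dim), by -0.23 ± 0.09. Of 9 genes of the ERK5 and MEF2 pathway, which induces Klf2 and Klf4, 0 were called and the median was 0.05. In it Map3k3, a kinase at the head of the pathway, differed by 0.51 ± 0.14, Mef2c by -0.53 ± 0.21, Hdac5, a deacetylase that restrains MEF2, by 0.50 ± 0.20 and Mef2d by 0.26 ± 0.21.

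Other inputs to the family were TGF-beta and steroid receptors. Of 14 measured TGF-beta early response genes 0 were called, with a median of 0.23. Smad6, an inhibitory SMAD, differed by -1.28 ± 0.32, Id2 by 0.49 ± 0.18, Tgfb2 by 1.10 ± 0.51 and the receptor Tgfbr1 by 0.64 ± 0.35. Of 10 measured glucocorticoid and progesterone receptor genes and targets 0 were called, 4 were higher at an unadjusted p under 0.05, and the median was 0.58. These were the metallothioneins Mt1 (1.06 ± 0.18) and Mt2 (1.15 ± 0.36), Nr3c1, the glucocorticoid receptor (0.96 ± 0.34), and Fkbp5, its chaperone (0.72 ± 0.26). The immediate early list, 15 genes induced within minutes of a stimulus, had 0 called and a median of 0.50, with Btg2 at 1.54 ± 0.21, Jun at 1.28 ± 0.31, Ier2 at 0.59 ± 0.14 and Dusp1 at 0.80 ± 0.22.

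Known targets were read last. Of 10 measured Klf4 and Klf6 targets 1 was called by limma over all probe sets: Cdkn1a, the cell cycle inhibitor p21, rose by 1.55 ± 0.16 (adjusted p = 0.0341). It read 12.26, 12.03 and 11.90 with GFP, 12.67, 12.83 and 13.10 with Cre, and 13.82, 13.36 and 13.64 with WNT4, and the 3 groups did not overlap. The call held in 5 of 18 alternatives and was lost in 13, with limma's adjusted p from 0.0272 to 0.355 and differences from 1.11 to 1.67. With the replicate block the adjusted p was 0.0682, and of the fits that left out 1 array the call held only without WNT4 2. The median of that list was -0.07. Odc1, the first enzyme of polyamine synthesis, differed by 0.89 ± 0.26, Plau, the urokinase activator (dim), by -0.41 ± 0.15, and Cdkn1b, the inhibitor p27, by 0.76 ± 0.36. Of 8 measured Klf2 targets, 4 of them dim, 0 were called, with a median of 0.25. S1pr1, a sphingosine receptor that Klf2 activates, differed by -0.23 ± 0.10 and Cxcr4 by 0.36 ± 0.19 (both dim), and Vegfa and Adm, also hypoxia genes, by 2.05 ± 0.95 and 1.55 ± 0.72.

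Of 8 measured steroidogenic genes with GC boxes in their known promoters 0 were called, 7 were higher for WNT4 against GFP at an unadjusted p under 0.05, and the median was 0.75. Scarb1, the receptor for high-density lipoprotein, differed by 1.10 ± 0.24, Star, which carries cholesterol into mitochondria, by 2.05 ± 0.50, Fdx1 by 0.82 ± 0.21 and Nr5a1 by 0.38 ± 0.11. Per array this list stood 1.31, 0.61 and 0.60 above GFP on WNT4 1, 2 and 3 and at -0.02, 0.41 and 0.28 on Cre 1, 2 and 3. For Cre against GFP 0 genes of any of these lists were called by limma. The lowest unadjusted p among these lists for Cre belonged to Cdkn1a (0.80 ± 0.16), followed by Mt1 (0.77 ± 0.18) and Btg2 (0.82 ± 0.21).

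Endothelial markers, whose cells express Klf2 and Klf4 strongly, had a median difference of 0.02 for WNT4 against GFP, and 1 of the 9, Emcn (dim), was lower at an unadjusted p under 0.05 (-0.27 ± 0.10). The mean level of the 9 ran from 5.34 to 5.50 on the GFP arrays, from 5.31 to 5.46 on the Cre arrays and from 5.40 to 5.56 on the WNT4 arrays. Theca and stroma markers ran from 6.25 to 6.60, 6.31 to 6.57 and 6.23 to 7.22 in the same order, highest on WNT4 1. The markers disagreed on that array. There Dcn (9.50), Pdgfra (8.16) and Lum (7.33) read highest of the 9 arrays, and Col1a1 (5.73) read lowest. Oocyte markers ran from 5.98 to 6.77, 6.13 to 7.04 and 6.25 to 7.56, also highest on WNT4 1. Leukocyte markers ran from 6.63 to 7.34, 6.62 to 7.56 and 6.15 to 7.29. Their mean was lowest on WNT4 1, the array highest in Klf4, and leaned on Laptm5. Laptm5 read 6.98 there, 10.22 on WNT4 2 and 8.76 on WNT4 3, beside 10.64 or more with GFP. It alone of this list was lower for WNT4 against GFP at an unadjusted p under 0.05 (-2.12 ± 0.66). The other leukocyte markers disagreed on WNT4 1. Tyrobp (5.94) was among those that read lowest of the 9 arrays there, and Ptprc (4.82) among those that did not. Surface epithelial markers ran from 5.61 to 5.70, 5.36 to 5.85 and 5.32 to 5.68. Of these, 1, Epcam, was lower for WNT4 against GFP at an unadjusted p under 0.05 (-0.83 ± 0.34). Granulosa markers had a median of 0.03, and their mean ran from 9.64 to 9.90, 9.37 to 9.80 and 9.32 to 9.99. Of the 13, 0 were called by limma, while 3 were lower and 1 higher for WNT4 against GFP at an unadjusted p under 0.05, and 3 were lower for Cre. For WNT4 Bmpr1b, a BMP receptor, differed by -1.56 ± 0.29, the estrogen receptor Esr2 by -1.25 ± 0.36, Foxl2, a factor of granulosa identity, by -0.32 ± 0.11 and Nr5a1 by 0.38 ± 0.11. For Cre Bmpr1b differed by -0.86 ± 0.29 and Foxl2 by -0.28 ± 0.11. Their part in the members' values was not tested. The part of theca, stroma, oocyte and leukocyte RNA in the values of WNT4 1 was not tested.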

How the data were processed

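The deposited values are log2 expression made by the authors with RMA, per the submitters' processing notes; no version is stated. RMA usually normalizes between arrays, yet the array medians ran from 5.44 to 5.54 and further scaling moved the differences, as given below. Of 45101 probe sets 64 controls were left out. Symbols came from the platform annotation, updated by Entrez ID through RefSeq (34741 of 34945 matched). A gene's value is that of its brightest probe set on average, with no filter on low values. limma 3.58.1 (R 4.3.3) took all 9 arrays in one linear model without covariates (two-sided, Benjamini-Hochberg over 45037 probe sets, called at an adjusted p under 0.05), and the procedure was checked on simulated data. An exact permutation test of 3 arrays against 3 cannot go below p = 0.1.

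The members and lists were chosen with earlier results of these data known, and the hypoxia, stress and marker lists with them; the cell cycle and interferon lists were written after the values were seen. Genes were named by rule: every member, up to 4 genes of a list with the lowest p in WNT4 against GFP, up to 2 in Cre against GFP, and the 6 profiles nearest to Klf4. Outside it, Amh, Cdh5, Pecam1, Egfl7, Kdr, Esam, Acta2 and Gdf9 are given for their levels, chosen after these were seen. Some listed genes are not analysed here. Same-numbered arrays deviated together in WNT4 against Cre (correlations of 0.21, 0.24 and 0.77 across probe sets), and not in every pair of the comparisons with GFP (-0.08, 0.01 and 0.35; -0.04, -0.31 and 0.31). The labels do not name what a number marks. The alternatives tried were a replicate block, 3 scalings, a filter, a trend, array weights, other probe sets and left-out arrays. The number of arrays limits the precision.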

Additional observations from a re-analysis of the deposited data

How the results depend on the processing

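Over 19 alternatives the Klf4 difference stayed positive and within the spread between replicates: 2.05 to 3.12 for WNT4 against GFP, 0.85 to 1.59 for Cre against GFP and 0.77 to 1.84 for WNT4 against Cre. Several alternatives cannot move a difference of means. They are the replicate block, the trend, the dim filter, the arrays of the pair alone and a left-out array of the group not compared. With the replicate number as a block the Klf4 differences were 2.55, 1.28 and 1.27, as without it. This was fixed in advance, since each number occurs once in each group, and only the error could change. The standard error of each was 0.35 in the block fit, and 0 members were called. Of all probe sets that fit called 0.0222% for WNT4 against GFP and 0% in the other comparisons. Of 567 alternative values of the members' 30 differences, 20 changed sign, those of Klf2 and Klf7 for WNT4 against GFP with GFP 2 left out among them. By more than the spread 5 moved. These were Klf13 after quantile normalization (0.11 for WNT4 against GFP, -0.03 for WNT4 against Cre), and Klf5 (0.20) and Klf9 (0.54 against GFP, 0.33 against Cre) with the mean of all probe sets. The 567 include the values that could not move, so these counts are no measure of stability. The members higher with WNT4 than GFP numbered 7 to 9, with Cre than GFP 7 to 9, and with WNT4 than Cre 9 to 10. The dim filter left 9 members. The members' median difference for WNT4 against GFP, 0.58 in the main fit, was 0.33 after quantile normalization. It was 0.43 with each array centred on its 75th percentile. Over all probe sets the medians under these 2 scalings were -0.01 and -0.15. After quantile normalization, and with each array centred on its 75th percentile (median difference over all probe sets -0.15), the WNT4 and GFP arrays did not overlap with WNT4 higher for 2 members, Klf4 and Klf9, against 4 (6.8% and 7.0% of all genes, against 12.5%). Under both scalings 1 member, Klf15, lay wholly below GFP, against 0 (8.40% and 12.0% of all genes, against 5.52%).

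Over all probe sets WNT4 against GFP gave 10 calls with the replicate block, 3 after quantile normalization, 17 after centring on the 75th percentile, 15 without dim probe sets, 1 with an intensity trend, 0 with the arrays of the pair alone and 0 without the arrays numbered 3. The share of higher differences among unadjusted p under 0.05 was 70.0%, and 48.0%, 80.1% and 30.1% after quantile normalization, median centring and centring on the 75th percentile. Leaving out 1 array gave 0 to 748 calls for WNT4 against GFP and 0 to 1 for Cre against GFP. The cause of these shifts was not tested.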
